A study of Mus musculus with 2 samples.

Results

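Neutrophils were described among CD45+ immune cells released from the mouse cecum, and 79 of 19571 barcodes assigned to a single mouse met their rule. A neutrophil had at least 3 UMIs (unique molecular identifiers, which count single RNA molecules) of S100a8 plus S100a9 and at least 2 UMIs of Csf3r plus Cxcr2 plus Retnlg. It had 0 UMIs of the macrophage genes C1qa, C1qb and C1qc, of the B cell gene Cd79a and of the T cell genes Cd3e, Cd3d and Cd3g. Every barcode also had at least 500 UMIs and at most 10% mitochondrial UMIs, and its leading mouse tag had at least 10 counts and at least 3 times the next tag. The 79 cells came from 4 male mice aged 101 days: 15 cells from Trpv1-ADC 1, 11 from Trpv1-ADC 2, 30 from CTRL 1 and 23 from CTRL 2.

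The study asked how activation of Trpv1+ nociceptors, the pain-sensing neurons, acts on gut immune cells. It set 2 Trpv1-ADC mice against 2 CTRL littermates, and the strains named for them were Trpv1-WT.B6 and Trpv1-Cre.B6. Which mouse carried which allele was not stated in the sources used here, and neither was what the virus encoded. Both groups carried the same treatment label, namely AAV (adeno-associated virus) given neonatally by the intraperitoneal route and CNO, a designer-receptor ligand, given 7 times on alternate days. Cells were freed with dispase and collagenase II, sorted for CD45 and run together in 1 droplet library, so all 4 mice share that library and only the DNA tags on anti-CD45 antibodies tell them apart.

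Neutrophils are short-lived granulocytes that leave the bone marrow already armed with granule proteins and enter tissue along chemokine and complement gradients. In the gut they are few in the absence of inflammation, kill microbes with granule enzymes and oxidants, and release cytokines such as interleukin 1 beta. Sensory nerve endings can release neuropeptides, among them CGRP, whose receptor contains the Ramp1 protein.

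The tag sequences are shown because a cell's group rests on them alone. Each is the whole 15-base antibody barcode, 5′ to 3′, with all bases in capitals since every base is read.
Trpv1-ADC 1, hashtag 7: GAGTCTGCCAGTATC
Trpv1-ADC 2, hashtag 9: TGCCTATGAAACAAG
CTRL 1, hashtag 1: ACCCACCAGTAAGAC
CTRL 2, hashtag 3: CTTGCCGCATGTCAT

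Among neutrophils the median count of the leading tag was 110 in Trpv1-ADC 1 and 185 in Trpv1-ADC 2, against 606 in CTRL 1 and 285 in CTRL 2. The median of the next tag was 14, 16, 12 and 14 in the same order of mice. Neutrophils thus carried fewer tags in the Trpv1-ADC mice, and so did all assigned cells, whose medians were 253 and 374 in Trpv1-ADC mice against 1117 and 577 in CTRL mice. The tag rule removed 4 of the 83 barcodes that met every other condition. Asking for a 5-fold lead left 11 and 11 neutrophils in Trpv1-ADC mice, against 29 and 23 in CTRL mice. No barcode was listed more than once.

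The cells carried the neutrophil programme named by their label. Csf3r, the receptor for the granulocyte growth factor G-CSF, had a UMI in 100% of the 79 cells, S100a8 and S100a9, which form the calprotectin dimer, each in 97.5%, and Cxcr2, the receptor for CXCL1 and CXCL2, in 82.3%. These genes chose the cells and are a description. Among markers the rule did not use, Hdc, the histamine-making enzyme, was seen in 96.2%, the decoy receptor Il1r2 in 92.4%, the lipolysis inhibitor G0s2 in 86.1%, and the gelatinase Mmp9 and the amplifying receptor Trem1 in 81.0% each. In T and B cells, taken as the background, these genes had a UMI in fewer cells: Hdc in 2.1% of T cells and 2.0% of B cells, Il1r2 in 6.7% and 17.5%, G0s2 in 2.8% and 0.9%, Mmp9 in 2.6% and 0.4% and Trem1 in 0.9% and 1.9%. These cells were deeper, with medians of 5957 and 4492.5 UMIs against 2804 in neutrophils. With every cell thinned to 500 UMIs, Hdc was expected in 64.7% of neutrophils, 1.26% of monocytes and 0.16% of T cells.

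Genes of immature neutrophils were almost silent. Mpo and Prtn3 of the primary granules and Camp and Ngp of the secondary granules each had a UMI in 1 of 79 cells, and Ltf in 3.80%. Elane and Ctsg, 2 primary granule proteases, had 0 UMIs, which leaves room for up to 3.80% of cells to hold such a UMI. Ly6g, the surface antigen that defines mouse neutrophils for antibodies, was also seen in only 1 cell. The 7 markers of eosinophils, the other granulocyte of the gut, summed to 1 UMI in the 9 deepest members and 3 UMIs in the other 70, with 0 UMIs of Ccr3, Prg2 and Epx.

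Members near the edge of the rule were few. A sum of 3 to 9 UMIs for S100a8 plus S100a9 was found in 7 members and a sum of at least 100 in 42. Just outside, 4 assigned barcodes had 1 or 2 such UMIs, and 83 had none while meeting the second sum. A second sum of 2 or 3 was found in 3 members, against 4 barcodes outside with a sum of 1. A further 57 barcodes met both sums but held a C1q, Cd79a or Cd3 UMI, of which 24 held exactly 1 such UMI. They numbered 5 and 10 in Trpv1-ADC mice, against 21 and 21 in CTRL mice, and had a median of 7068 UMIs.

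Depth split the 79 cells unevenly. The 70 members of at most 5000 UMIs ran between 550 and 4333 UMIs, with a median of 2739 UMIs and 1125 genes. The other 9 members had 5555 to 38429 UMIs and a median of 3305 genes. Of these 9, 1 came from each Trpv1-ADC mouse, 4 from CTRL 1 and 3 from CTRL 2. They held 18.4% and 20.7% of the neutrophil UMIs in Trpv1-ADC mice, against 42.5% and 52.3% in CTRL mice. Scrublet, a doublet caller, called 5 of the 9 and 0 of the 70.

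Summed together, the 9 deep members carried transcripts of other cell types. Stroma and endothelium markers summed to 44.2 UMIs per 10000 UMIs in the 9 deep members, against 1.94 in the other 70. Epithelium markers stood at 20.4 against 0.97, and monocyte markers at 35.5 against 6.01. Single cells and genes carried much of these sums. In the deep members, 1 cell gave 258 of the 261 epithelium UMIs, and Cd74 gave 346 of the 454 monocyte UMIs. The member of 5555 UMIs held 1 UMI of the stroma list, 1 of the epithelium list and 5 of the monocyte list. Neutrophil markers stood at 113 in the 9 and 822 in the 70. Over all members, stroma and endothelium markers stood at 22.3 and 1.83 per 10000 UMIs in Trpv1-ADC mice, against 8.43 and 34.7 in CTRL mice, and epithelium markers at 0.20 and 0.52 against 1.26 and 24.0. Without the 9, no mouse had more than 2.70 of the stroma list or 1.92 of the epithelium list. Cdh5 of the stroma and endothelium list, Krt20 of the epithelium list and F13a1 of the monocyte list had 0 UMIs in all members. The deepest member, a CTRL 2 cell of 38429 UMIs, held 97 UMIs of the keratin Krt8, 92 of the epithelial galectin Lgals4 and 433 of the carbonic anhydrase Car1. A CTRL 2 cell of 11717 UMIs held 224 UMIs of Dcn, the fibroblast proteoglycan decorin. A CTRL 1 cell of 20755 UMIs held 325 UMIs of Cd74 and 85 of H2-Ab1, genes of antigen presentation. Counts of called genes are given below with and without them, and so are values of many of the genes compared between groups.

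Ribosomal protein genes marked the same divide. They took 9.88% of UMIs in the 9 deep members, against 2.63% in the other 70, 11.2% in monocytes and 10.5% in C1q-positive macrophages. Within the 70, the share was 2.64% and 2.23% in Trpv1-ADC mice, against 2.82% and 2.59% in CTRL mice. With all 79 cells it was 2.98% and 2.94% in Trpv1-ADC mice, against 5.71% and 7.30% in CTRL mice. The groups overlapped without the deep members and stood apart with them.

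**Figure D1:**
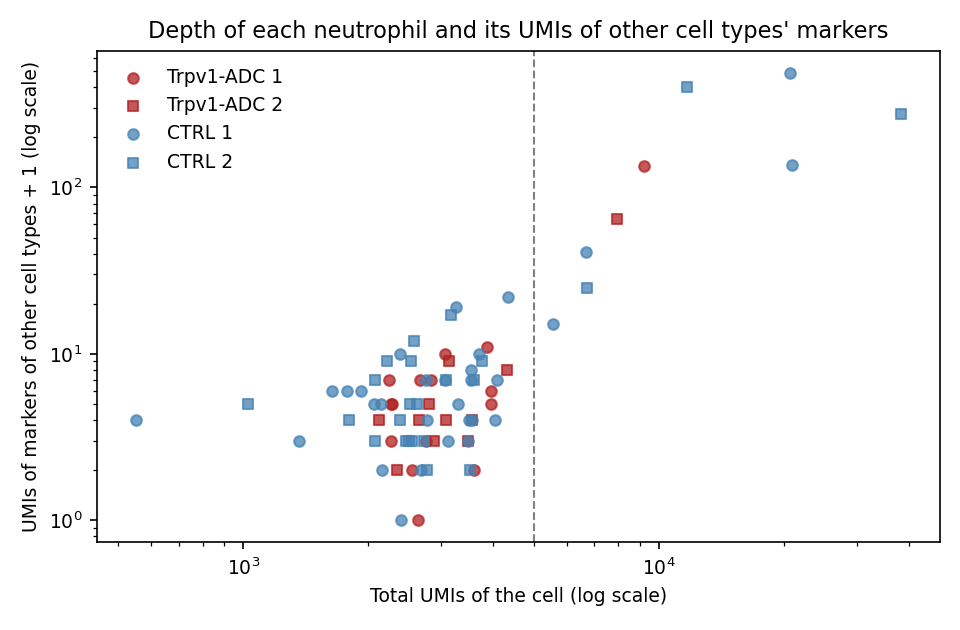
Total UMIs of each of the 79 neutrophils (x, log axis) against its summed UMIs of markers of other cell types plus 1 (y, log axis), red for Trpv1-ADC and blue for CTRL mice, with a dashed line at 5000 UMIs. The 9 members right of the line, 2 from Trpv1-ADC mice and 7 from CTRL mice, reach 38429 UMIs, and the other 70 end at 4333 UMIs.

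Neutrophils were a smaller share of cecal CD45+ cells in Trpv1-ADC mice. They made up 0.315% (15 of 4758 cells, exact 95% interval 0.177 to 0.519%) in Trpv1-ADC 1 and 0.218% (11 of 5041, 0.109 to 0.390%) in Trpv1-ADC 2. They made up 0.586% (30 of 5119, 0.396 to 0.836%) in CTRL 1 and 0.494% (23 of 4653, 0.314 to 0.741%) in CTRL 2. Both Trpv1-ADC mice lay below both CTRL mice, although the intervals of single mice, which cover counting error only, overlapped between groups. The mean was 0.267 ± 0.069% in Trpv1-ADC mice and 0.540 ± 0.065% in CTRL mice (SD, n = 2 each), a ratio of 0.494 and a difference of -0.273 percentage points. The exact two-sided permutation test over the mice gave p = 0.333, the smallest p that 2 mice against 2 can give, so the comparison cannot pass 0.05.

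The share held its direction without the deep members, at 0.294% and 0.198% in Trpv1-ADC mice against 0.508% and 0.430% in CTRL mice, a ratio of 0.525. With 1 UMI each of the C1q, Cd79a and Cd3 genes allowed, the means were 0.327% in Trpv1-ADC mice and 0.737% in CTRL mice. Among myeloid cells, taken as neutrophils, monocytes and macrophages, neutrophils made up 9.15% and 8.94% in Trpv1-ADC mice against 12.1% and 12.8% in CTRL mice, a ratio of 0.724. Monocytes were also fewer among all cells, at 1.04 ± 0.19% in Trpv1-ADC mice against 1.68 ± 0.06% in CTRL mice (SD, n = 2 each). Macrophage shares overlapped between groups, with means of 1.64% in Trpv1-ADC mice and 2.12% in CTRL mice. The lower tag counts of Trpv1-ADC mice moved with these shares, and their part was not tested beyond the tag ratios. A share of sorted cells does not say whether the number of neutrophils per cecum differed.

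**Figure D2:**
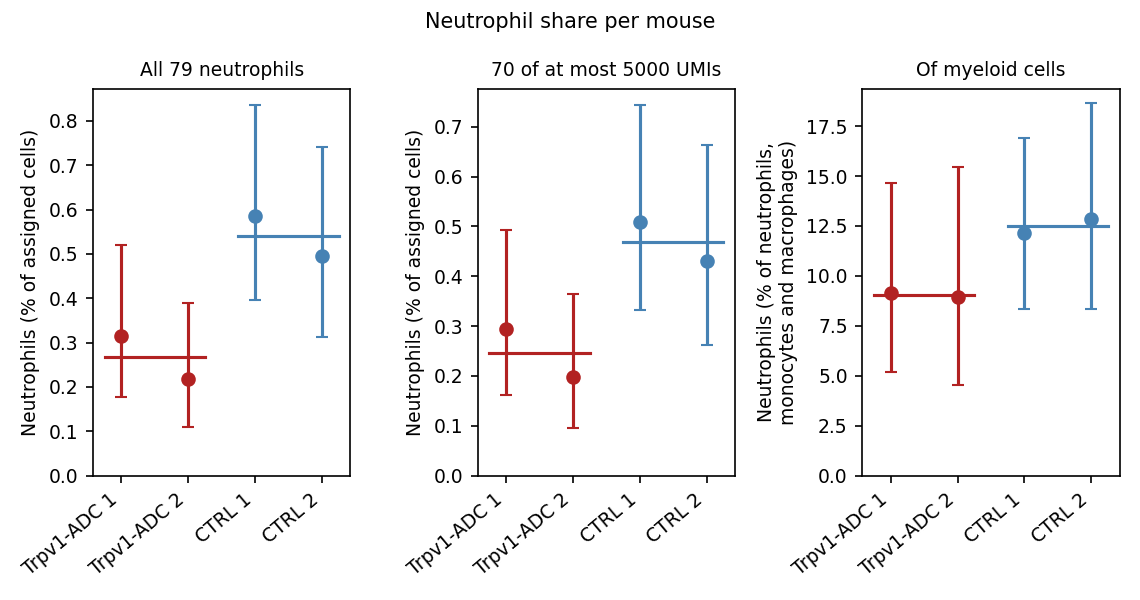
Neutrophils as a percent of assigned CD45+ cells in each mouse, with exact 95% binomial intervals for counting error, for all members (left), with members over 5000 UMIs left out (middle) and as a percent of myeloid cells (right); horizontal lines are group means. Both Trpv1-ADC mice (0.315 and 0.218% with all members) lie below both CTRL mice (0.586 and 0.494%) in each panel.

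Next, neutrophils were set against 266 monocytes, their nearest myeloid relatives in the library, which had at least 3 UMIs of Ccr2, Ly6c2 and Fn1 together, a Csf1r UMI and none of the excluding genes, Cxcr2 and Retnlg included. UMIs were summed per mouse and cell type and tested by edgeR's quasi-likelihood test with mouse as a block. Of 3907 genes tested, 434 were higher in neutrophils (11.1%) and 315 lower (8.06%), 19.2% in all, at a Benjamini-Hochberg adjusted p under 0.05. Without the 9 deep members the counts were 646 higher (18.6%) and 943 lower (27.1%) of 3476, 45.7% in all. Monocytes were deeper, at a median of 7756.5 UMIs against 2804 in neutrophils, and the median log2 fold change of all genes tested was -0.16. All fold changes below are neutrophils over monocytes unless another cell type is named, CPM means counts per 1000000 UMIs of the summed cells, and 4 values in a row follow the order Trpv1-ADC 1, Trpv1-ADC 2, CTRL 1, CTRL 2. Counts per gene list are descriptions, since a gene abundant in 1 cell type passes the low-count filter through that type.

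Granule protein genes were called in both directions against monocytes, more of them higher. Of 23 listed genes 13 were tested, with 7 higher, 2 lower and a median log2 fold change of 2.33. Mmp9, the gelatinase of tertiary granules, stood at 1097, 1149, 543 and 451 CPM in neutrophils, against 0, 2.12, 1.41 and 4.84 CPM in monocytes (log2 fold change 8.23 ± 0.54 SE, edgeR adjusted p = 7.7e-06). Lcn2, the iron-chelator carrier lipocalin 2, stood at 618, 1280, 512 and 239 CPM in neutrophils, against 5.34, 12.7, 0 and 12.9 CPM in monocytes (6.41 ± 0.63, adjusted p = 8.2e-05). No neutrophil sum overlapped a monocyte sum for either gene.

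Wfdc21, a small secreted whey acidic protein, was higher by 6.22 ± 0.82 on the log2 scale and Pglyrp1, which binds bacterial peptidoglycan, by 5.49 ± 0.55. Slpi, an inhibitor of serine proteases, stood at 1556, 1254, 1291 and 1269 CPM in neutrophils, against 163, 199, 138 and 247 CPM in monocytes (3.02 ± 0.32). The 2 lower genes were Lyz2 and Chil3. Lyz2, a lysozyme, stood at 299, 888, 1299 and 147 CPM in neutrophils, against 9577, 9618, 6045 and 6546 CPM in monocytes (-3.81 ± 0.52, adjusted p = 0.00056). Chil3, a chitinase-like protein, had 1 UMI in neutrophils and 577 in monocytes, a ratio of 0.012 (0.00029 to 0.065). The integrin chain Itgam gave -0.09 ± 0.32, Wfdc17 -0.17 ± 0.28, the annexin Anxa1 0.60 ± 0.34 and Hp 0.91 ± 0.35, and these 4 were not called.

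Several genes were read in neutrophils and not once in monocytes. Against a floor of 3 counts over the pooled monocytes, Il1f9, an interleukin 1 family cytokine, was at least 255-fold higher with 114 UMIs. Asprv1, a retroviral-like aspartic protease, was at least 213-fold higher with 95 UMIs, Stfa2l1, a stefin-like gene, at least 170-fold with 76 UMIs, and Chil1, a chitinase-like protein, at least 107-fold with 48 UMIs. In the other direction F13a1, the coagulation factor XIII A chain, had 0 UMIs in neutrophils and was at least 45.9-fold lower against the same floor. Stefin-like genes have close paralogs, between which reads can be split or lost.

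Receptors that guide migration followed. Of 19 listed genes 18 were tested, with 13 higher and 0 lower (median 1.59). C5ar1, the receptor for complement C5a, stood at 738, 731, 528 and 515 CPM in neutrophils, against 88.1, 102, 81.7 and 87.1 CPM in monocytes (2.93 ± 0.29, adjusted p = 8.2e-05). The formyl peptide receptors Fpr1 (4.89 ± 0.62) and Fpr2 (2.71 ± 0.46) and the chemokine receptor Ccr1 (2.22 ± 0.30) were higher too. Cxcr4, the receptor for CXCL12 that marks aged neutrophils, was higher by 1.54 ± 0.28.

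Interleukin 1 beta and its decoy receptor were both higher than in monocytes. Of 22 listed cytokine and chemokine genes 17 were tested, with 8 higher and 0 lower (median 0.93). Il1b, which encodes interleukin 1 beta, stood at 9576, 7783, 9410 and 6574 CPM in neutrophils, against 2097, 777, 1592 and 1682 CPM in monocytes (2.65 ± 0.30, adjusted p = 0.00018). Il1r2, which binds interleukin 1 without signalling, stood at 3771, 2168, 2504 and 1756 CPM in neutrophils, against 118, 110, 201 and 274 CPM in monocytes (4.03 ± 0.41). The receptor antagonist Il1rn was higher by 1.77 ± 0.33.

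Cxcl2, a ligand of Cxcr2, stood at 7481, 5145, 8158 and 3926 CPM in neutrophils, against 1418, 1095, 1405 and 1387 CPM in monocytes (2.32 ± 0.29, adjusted p = 0.00030). Cxcr2 is a gene of the rule that chose the cells, so reading it beside its ligand is a description. Csf1, the macrophage growth factor, was higher by 3.82 ± 0.55, Il23a, the interleukin 23 subunit that feeds type 17 responses, by 6.01 ± 0.69, and Ccl3 by 2.50 ± 0.57.

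The promoters of 4 of these genes are shown, since S100a8 and S100a9 define the cells and Il1b and Cxcl2 are the cytokine genes given by mouse above. Each is the 250 bases before the start in the RefSeq promoter table (build GRCm38.p6), 5′ to 3′ on the gene's strand, with motif matches in capitals.
S100a8, chr3:90668821-90669070, plus strand: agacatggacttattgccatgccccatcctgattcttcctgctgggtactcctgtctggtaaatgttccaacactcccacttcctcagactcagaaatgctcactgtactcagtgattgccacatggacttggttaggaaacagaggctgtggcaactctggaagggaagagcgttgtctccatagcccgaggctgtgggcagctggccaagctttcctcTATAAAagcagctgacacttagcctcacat
S100a9, chr3:90695722-90695971, minus strand: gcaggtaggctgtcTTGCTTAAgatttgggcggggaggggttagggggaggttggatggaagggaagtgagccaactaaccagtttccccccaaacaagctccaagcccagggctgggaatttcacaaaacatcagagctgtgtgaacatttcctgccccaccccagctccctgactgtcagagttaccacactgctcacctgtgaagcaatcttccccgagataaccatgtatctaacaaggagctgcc
Il1b, chr2:129371140-129371389, minus strand: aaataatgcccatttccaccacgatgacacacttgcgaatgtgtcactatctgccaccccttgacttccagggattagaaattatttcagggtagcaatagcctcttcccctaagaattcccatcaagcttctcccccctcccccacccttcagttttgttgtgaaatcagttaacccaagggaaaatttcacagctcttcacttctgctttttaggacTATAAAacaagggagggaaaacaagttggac
Cxcl2, chr5:90903649-90903898, plus strand: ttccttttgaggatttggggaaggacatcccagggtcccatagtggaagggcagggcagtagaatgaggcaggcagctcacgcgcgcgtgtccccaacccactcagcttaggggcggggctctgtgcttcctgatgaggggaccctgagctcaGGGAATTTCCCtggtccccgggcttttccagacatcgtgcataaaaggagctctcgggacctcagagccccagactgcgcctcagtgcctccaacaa

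A search of both strands for TATAAA, the letters of a TATA box, found a match 30 bases before the start of S100a8 and 31 bases before that of Il1b. TTGCNNAA, letters of the C/EBP family, matched 236 bases before S100a9, and GGGA followed by any 2 bases and TTCC, letters of NF-kB, matched both strands of Cxcl2 at 97 and 96 bases before the start, in overlapping windows. Of 32851 mouse promoters of the same length, 12.4% held TATAAA, 9.56% TTGCNNAA and 1.21% the NF-kB letters. A match is a string of letters and not a shown binding site.

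Lipid mediator and phagosome genes split. Of 16 listed genes 14 were tested, with 7 higher and 2 lower (median 0.74). Ptgs2, the inducible cyclooxygenase, stood at 1915, 731, 1260 and 708 CPM in neutrophils, against 176, 40.3, 125 and 244 CPM in monocytes (3.23 ± 0.42, adjusted p = 0.00040). Alox5, the first enzyme of leukotriene synthesis, was higher by 4.21 ± 0.51, and Arg2, the mitochondrial arginase, by 3.49 ± 0.34. Within the NADPH oxidase, Ncf1, its p47 subunit, was higher (1.97 ± 0.31), whereas the membrane subunit Cybb was lower (-2.95 ± 0.76, adjusted p = 0.020). Cybb had 0, 392, 173 and 0 CPM in neutrophils, so that 1 mouse of each group had no UMI of it. Nos2, the inducible nitric oxide synthase, and Arg1 had 0 UMIs in all 79 cells.

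Genes of microbe sensing were higher or not called. Of 17 listed genes 16 were tested, with 8 higher and 0 lower (median 1.04). The C-type lectin receptor Clec4d stood at 1337, 1880, 1559 and 1131 CPM in neutrophils, against 155, 99.6, 110 and 131 CPM in monocytes (3.71 ± 0.34). Trem1 was higher by 3.12 ± 0.37 and Trem3 by 3.28 ± 0.35. Nlrp3, the sensor of the inflammasome that releases interleukin 1 beta, stood at 2454, 888, 1811 and 1728 CPM in neutrophils, against 230, 210, 258 and 345 CPM in monocytes (2.81 ± 0.34, adjusted p = 0.00025). The itaconate-making enzyme Acod1 was higher by 7.56 ± 0.50.

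Feedback genes of NF-kB, the main inflammatory transcription factor, had 15 tested of 15 listed, with 7 higher and 0 lower (median 0.61). Tnfaip2 stood at 2853, 1802, 4008 and 2326 CPM in neutrophils, against 374, 398, 375 and 534 CPM in monocytes (2.81 ± 0.34). The nuclear inhibitors Nfkbiz (2.67 ± 0.31) and Nfkbid (2.27 ± 0.32) were also higher. Of 21 immediate early genes, which respond within minutes to many stimuli, all were tested, with 10 higher and 2 lower (median 0.94). Egr1 was higher by 2.45 ± 0.39 (1.85 without the deep members) and Dusp1, a phosphatase of MAP kinases, by 1.48 ± 0.29.

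Type I interferon response genes showed no common direction, with 17 tested of 25 listed, 4 higher and 3 lower (median 0.48). Ifitm1 (4.31 ± 0.40) and Slfn4 (4.51 ± 0.42) were higher and Ifitm3 was lower (-1.74 ± 0.32). Of 14 heat shock genes 12 were tested, with 1 higher and 2 lower (median -0.45), and without the deep members 0 were higher and 9 lower. Of 16 genes of hypoxia and glycolysis 13 were tested, and only 1 was called, Slc2a3, a glucose transporter (5.36 ± 0.56). Of 16 genes of survival and death 14 were tested, with 3 higher and 0 lower (median 0.18), among them Cd274, which encodes PD-L1 (2.17 ± 0.36).

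Receptors for neuropeptides were scarce. Of 21 genes of cyclic AMP and neuropeptide signalling 10 were tested, with 2 higher and 1 lower (median 0.30). Ramp1, a subunit of the CGRP receptor, had a UMI in 6.33% of neutrophils and 34.6% of monocytes, and its test gave -1.49 ± 0.57 (adjusted p = 0.090). Thinned to 500 UMIs, Ramp1 was expected in 0.96% of neutrophils and 2.79% of monocytes, both near the level of 1 UMI. Calcrl, the other subunit of that receptor, and Vipr1, a receptor for vasoactive intestinal peptide, each had a UMI in 1.27% of neutrophils. Tacr1, the substance P receptor, had 0 UMIs.

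Transcription factors of the myeloid lineage had 9 tested of 12 listed, 2 higher and 2 lower (median 0.09). Cebpd was higher by 2.19 ± 0.31. Cebpa and Irf8 were lower (-2.52 ± 0.75 and -1.60 ± 0.38, adjusted p = 0.037 and 0.013), and both lost the call when 1 mouse was left out. Of 111 named genes called against monocytes, 81 kept the call with each mouse left out in turn. Among genes named above, Cebpa and Irf8 were those that lost it.

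**Figure D3:**
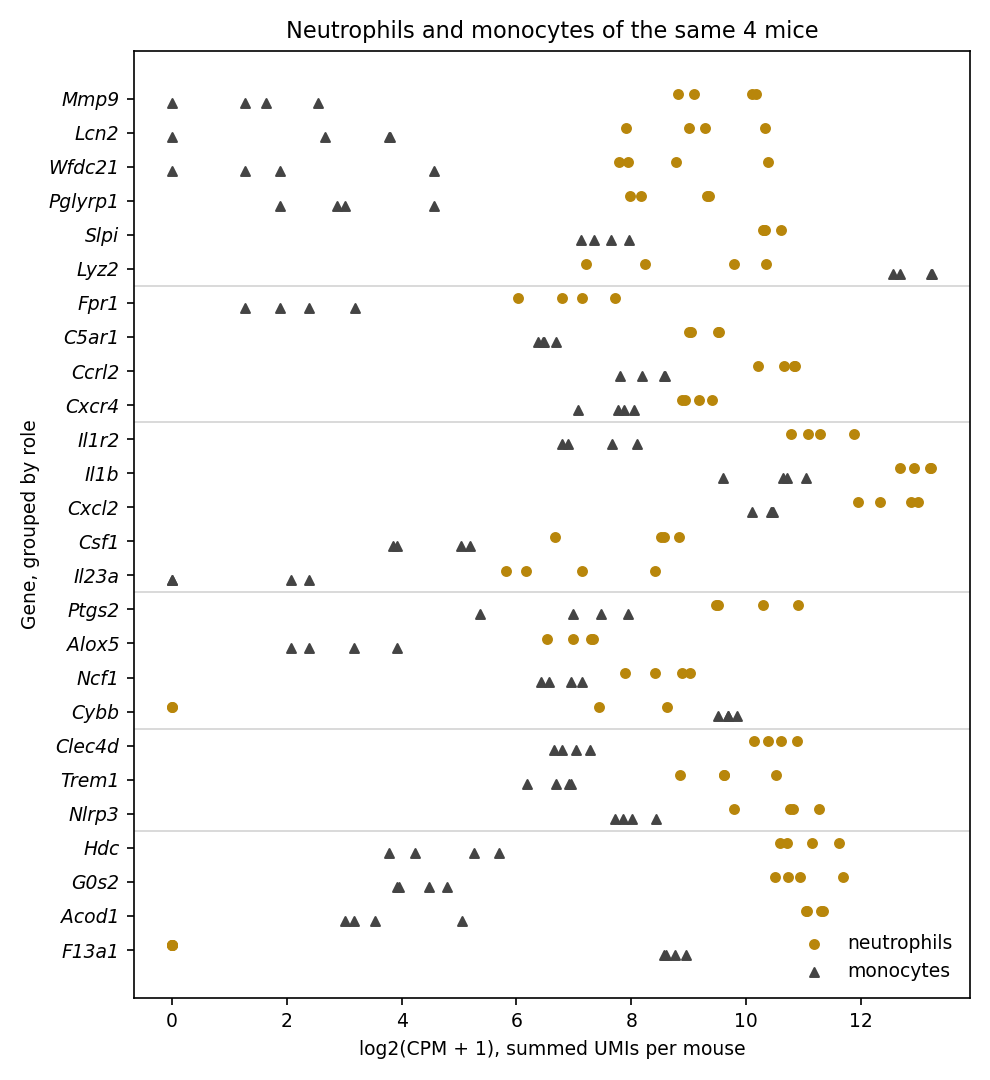
Level of 26 genes, grouped by role, as log2(CPM + 1) of the UMIs summed per mouse, with 1 point per mouse for neutrophils (circles) and monocytes (triangles). Neutrophil sums lie above all monocyte sums for 23 of the genes, Mmp9 and Il1b among them, and below them for Lyz2, Cybb and F13a1.

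Against 368 macrophages (at least 5 UMIs of C1qa, C1qb and C1qc together) the same genes were set out with the same test, and of 4817 genes 496 were higher (10.3%) and 424 lower (8.8%), 19.1% in all. Without the deep members the counts were 713 higher (15.5%) and 1269 lower (27.6%) of 4597, 43.1% in all. This comparison shares its neutrophil sums with the one against monocytes, so the values stand side by side and are not independent. Il1b was higher by 3.16 ± 0.38 and Il1r2 by 3.72 ± 0.42. Trem1 stood at 778, 1463, 780 and 460 CPM in neutrophils, against 21.4, 8.74, 25.3 and 50.2 CPM in macrophages (5.10 ± 0.54, adjusted p = 2.3e-05). Mmp9 was higher by 3.96 ± 0.39, with 64.3, 36.7, 45.3 and 58.5 CPM in macrophages. The acute-phase gene Lrg1 was higher by 6.55 ± 0.52 and Pf4, the chemokine platelet factor 4, was lower (-6.94 ± 0.68), with 0, 0, 7.87 and 0 CPM in neutrophils.

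By list, granule proteins had 8 higher and 1 lower of 11 tested against macrophages, migration receptors 14 higher and 1 lower of 19, cytokines 8 higher and 0 lower of 17, and microbe sensing genes 8 higher and 0 lower of 17. Interferon genes had 7 higher and 1 lower of 18, and heat shock genes 0 higher and 5 lower of 13, or 11 lower without the deep members. Cybb, called against monocytes, was not called against macrophages (-2.17 ± 0.74, adjusted p = 0.055).

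Neutrophils were not uniform among themselves. In the 70 members of at most 5000 UMIs, S100a8 plus S100a9 took between 11.4 and 2022 of every 10000 UMIs, with a median of 432. The medians per mouse were 312 and 681 in Trpv1-ADC mice, against 459 and 284 in CTRL mice, which overlap. Csf3r, by contrast, ran between 5.2 and 58.3, with a median of 25.1, and the rule also used this gene. Correlations below are Spearman's rho over these 70 cells, which share 1 library, 4 mice and differing depth, and are descriptions. S100a8 and S100a9 varied together (rho 0.883), and their sum also followed total UMIs (rho 0.526).

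Retnlg and granule genes went with S100a8 and S100a9, and Ptafr, Tgm2 and Icam1 went against them. The sum and Retnlg both belong to the rule that chose the cells, so their correlation (0.687) is no independent result. Among genes outside the rule, the sum correlated with Wfdc21 (0.551) and Lcn2 (0.485). It ran against Ptafr, the receptor for platelet-activating factor (-0.539), the transglutaminase Tgm2 (-0.502), the adhesion molecule Icam1 (-0.44) and Cxcr4 (-0.283). Il1b (-0.274) and Cxcl2 (-0.199) were weakly lower where the sum was higher.

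The 23 cells richest in S100a8 and S100a9 (642 to 2022 per 10000 UMIs) were set against the 23 poorest (11.4 to 204). Mmp8, the neutrophil collagenase, had a UMI in 13 of the richest and 0 of the poorest cells (3.88 against 0 per 10000 UMIs). Lcn2 was seen in 19 cells against 5 (12.8 against 2.2 per 10000 UMIs), and Hp, the haptoglobin gene, in 22 against 7 (11.4 against 2.5). Icam1 was seen in 5 of the richest and 15 of the poorest (1.04 against 8.62), and the costimulatory gene Cd80 in 12 against 22 (4.66 against 11.7). Il1b was seen in all 23 cells of both, at 81.9 per 10000 UMIs in the richest and 130 in the poorest. Counts of cells with a UMI also depend on total UMIs, which rose with the sum (rho 0.526). The richest cells were 4 of 14 and 5 of 10 cells in Trpv1-ADC mice, against 9 of 26 and 5 of 20 in CTRL mice.

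Il1b also varied between cells. It correlated with Ptgs2 (0.647), Tnfaip2 (0.426), Nfkbia, the inhibitor of NF-kB (0.409), and Cxcl2 (0.239), and little with total UMIs (0.144). Its median per 10000 UMIs was 95.0 and 84.5 in Trpv1-ADC mice, against 107 and 89.5 in CTRL mice.

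**Figure D4:**
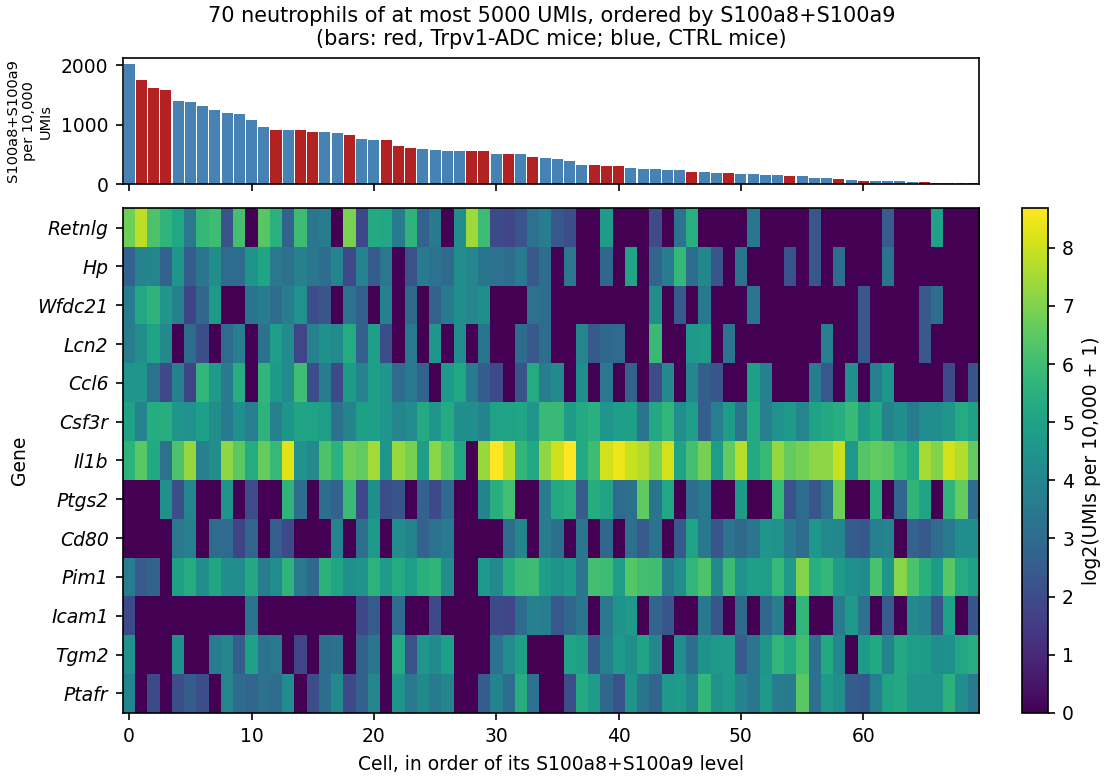
The 70 neutrophils of at most 5000 UMIs in order of S100a8 plus S100a9 per 10000 UMIs (bars above, red for Trpv1-ADC and blue for CTRL mice), with the log2(UMIs per 10000 + 1) of 13 genes as colour below. Cells of both groups lie along the whole order, Retnlg and Lcn2 gather at its high end, Icam1 at its low end, and Il1b is present in all but 1 of the cells.

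Within neutrophils, Trpv1-ADC mice were compared with CTRL mice on the same sums. No gene of 1436 tested passed an adjusted p of 0.05 in edgeR (0%), while 202 had an unadjusted p under 0.05 and DESeq2 called 3 (Rhob higher, Rpl32 and Crip1 lower). CPM values of both Trpv1-ADC mice lay apart from both CTRL mice in 46.9% of genes. The sums were small, at 50125 and 38289 UMIs in Trpv1-ADC mice against 126994 and 108766 in CTRL mice. Without the deep members 0 of 869 genes passed (0%), 63 had an unadjusted p under 0.05, DESeq2 called 2 (Rhob and Hspa1a, both higher), and 37.3% of genes lay apart. Single mice moved the count of edgeR calls: it was 95 without Trpv1-ADC 1, 32 without Trpv1-ADC 2, 121 without CTRL 1 and 15 without CTRL 2, where a lone mouse is assumed to vary like the other group.

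Ribosomal protein genes, many with processed copies that can share reads, led the order by p. Of 78 tested, 77 had a log2 fold change below 0, with a median of -1.53, and 65 had an unadjusted p under 0.05, against a median of -0.04 over all genes. Rpl32 stood at 140 and 183 CPM in Trpv1-ADC mice, against 795 and 1067 CPM in CTRL mice (-2.72 ± 0.49, adjusted p = 0.112). Without the deep members it stood at 97.8 and 132 CPM in Trpv1-ADC mice, against 274 and 193 CPM in CTRL mice. Rps15a gave -2.07 ± 0.43 with all cells and 0.02 without the 9. Of 44 ribosomal genes tested without the 9, 25 lay below 0, with a median of -0.14, and 0 had an unadjusted p under 0.05.

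Mt1, a metallothionein, and Crip1, a small LIM protein, also depended on single deep cells. Mt1 stood at 39.9 and 78.4 CPM in Trpv1-ADC mice against 795 and 257 CPM in CTRL mice, and 98 of its 101 UMIs in CTRL 1 came from 1 cell. Crip1 had 321 of its 327 UMIs in CTRL 1 in 1 cell. Without the deep members Crip1 stood at 48.9 and 98.8 CPM in Trpv1-ADC mice, against 27.4 and 57.8 CPM in CTRL mice.

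Rhob, on chromosome 12, a small GTPase of the endosome, was the gene of smallest p that was higher in Trpv1-ADC mice. It stood at 638 and 1724 CPM in Trpv1-ADC mice, against 134 and 129 CPM in CTRL mice (2.98 ± 0.55, adjusted p = 0.112). Without the deep members the values were 538 and 2141 CPM in Trpv1-ADC mice, against 151 and 57.8 CPM in CTRL mice (3.67, adjusted p = 0.416). It had a UMI in 5 of 14 and 8 of 10 of those Trpv1-ADC cells, against 7 of 26 and 3 of 20 CTRL cells. DESeq2 called Rhob with and without the deep members. Fry, a microtubule-associated protein picked after its values were seen, stood at 319 and 444 CPM in Trpv1-ADC mice, against 86.6 and 55.2 CPM in CTRL mice (2.23 ± 0.56, adjusted p = 0.121), and without the deep members at 391 and 560 CPM against 82.1 and 96.3 CPM.

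Heat shock and immediate early genes had values in both directions, more of them positive, and 0 passed. Of 11 heat shock genes tested 8 had a positive log2 fold change (median 0.87) and 7 lay apart between groups. Without the deep members only 8 of these genes were tested, with 6 positive (median 1.83 over this smaller set) and 4 apart. Of 20 immediate early genes 17 were positive (median 0.48) and 14 lay apart. Without the deep members 18 of them were tested, with 15 positive (median 0.40) and 10 apart. Of all 1436 genes 687 were positive and 46.9% lay apart. Without the deep members 409 of 867 genes were positive and 37.3% lay apart. Hspa1a, an inducible chaperone, stood at 1237 and 2063 CPM in Trpv1-ADC mice, against 646 and 506 CPM in CTRL mice (1.35 ± 0.40, adjusted p = 0.141). Without the deep members it stood at 953 and 1878 CPM in Trpv1-ADC mice, against 178 and 173 CPM in CTRL mice, and 1 cell gave 35 of the 39 UMIs in Trpv1-ADC 1. Hspa1a and Hspa1b are nearly identical copies, and reads can be split between them. Hspa1b stood at 1416 and 1280 CPM in Trpv1-ADC mice, against 945 and 423 CPM in CTRL mice. Without the deep members Hspa1b stood at 636 and 132 CPM in Trpv1-ADC mice, against 260 and 193 CPM in CTRL mice, and the groups overlapped. Of the 5 heat shock genes with an unadjusted p under 0.05, 3 were negative: the mitochondrial chaperonins Hspd1 (-4.19 ± 1.01) and Hspe1 (-2.15 ± 0.79), and Hsp90ab1 (-0.97 ± 0.39). Zfp36l1, an RNA-binding protein, had the smallest p of the immediate early list and was negative (-2.12 ± 0.53, adjusted p = 0.121). Most UMIs of these negative genes lay in the deep members where counted: 59 of 66 for Hspe1, 218 of 272 for Hsp90ab1 and 110 of 138 for Zfp36l1. The deep members also held 160 of 278 UMIs of Hspa1a and 86 of 155 of Dnajb1, which were positive. Klf2 stood at 978 and 4649 CPM in Trpv1-ADC mice, against 457 and 644 CPM in CTRL mice (2.17 ± 0.74, adjusted p = 0.253), and Jun at 1077 and 3735 CPM against 496 and 855 CPM (1.63 ± 0.63, adjusted p = 0.295). Both were highest in Trpv1-ADC 2. Klf2 gave 2.15 and Jun 3.09 without the deep members. In that setting the heat shock genes Hsp90aa1 and Dnajb1 were highest in Trpv1-ADC 2 too. Hsp90aa1 stood at 293 and 3459 CPM in Trpv1-ADC mice, against 178 and 154 CPM in CTRL mice. Dnajb1 stood at 269 and 1449 CPM in Trpv1-ADC mice, against 110 and 116 CPM in CTRL mice.

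Of 12 granule genes tested between groups 8 had a positive log2 fold change and 4 a negative one, and 0 passed. Mmp8 stood at 279 and 209 CPM in Trpv1-ADC mice, against 70.9 and 27.6 CPM in CTRL mice (2.12 ± 0.64, adjusted p = 0.141), from 14 and 8 UMIs in Trpv1-ADC mice and 9 and 3 UMIs in CTRL mice. Wfdc21 stood at 439 and 1332 CPM in Trpv1-ADC mice, against 244 and 221 CPM in CTRL mice (1.75 ± 0.54, adjusted p = 0.156). Mmp9 gave 1.01 ± 0.38 and Lcn2 1.18 ± 0.49, while Anxa1 gave -0.41 ± 0.57, Lyz2 -0.40 ± 1.03, Itgam -0.14 ± 0.57 and Slpi -0.04 ± 0.36. Mmp8 gave 1.65 and Wfdc21 1.47 without the deep members. The median of the 12 was 0.34, or 0.26 without the deep members, and 5 of them lay apart between groups, a share close to the 46.9% of all genes. Of 9 neutrophil markers tested, Mmp9 and Lcn2 among them, 8 were positive (median 0.58). Without the deep members 5 of the 9 were positive (median 0.14). Retnlg, a gene of the rule and so not tested, stood at 1776 and 6582 CPM in Trpv1-ADC mice and 811 and 809 CPM in CTRL mice. Without the deep members it stood at 2078 and 8268 CPM in Trpv1-ADC mice and 1410 and 1618 CPM in CTRL mice. In Trpv1-ADC 2, 96 of its 252 UMIs came from 1 cell.

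Among cytokine and chemokine genes 12 were tested between groups, 6 of them positive, with a median of 0.12 and 0 called. Without the deep members 11 were tested, 3 of them positive, with a median of -0.20 and 0 called. Il1b stood at 9576 and 7783 CPM in Trpv1-ADC mice, against 9410 and 6574 CPM in CTRL mice (-0.04 ± 0.30, adjusted p = 0.982). With the 70 others alone Il1b stood at 11416 and 9454 CPM in Trpv1-ADC mice, against 14211 and 12790 CPM in CTRL mice, with the groups apart (-0.32, adjusted p = 0.859). Cxcl2 stood at 7481 and 5145 CPM in Trpv1-ADC mice, against 8158 and 3926 CPM in CTRL mice (-0.07 ± 0.35), and gave -0.33 without the deep members. Il23a had the smallest unadjusted p of these genes, at 140 and 340 CPM in Trpv1-ADC mice against 70.9 and 55.2 CPM in CTRL mice (1.71 ± 0.65, adjusted p = 0.253). Hdc gave 0.18 ± 0.38 and Il1r2 0.32 ± 0.36. Feedback genes of NF-kB had a median of -0.53 over 14 tested, 3 of them positive, and -0.69 without the deep members, and 0 were called. A p that misses the threshold does not show that the groups were alike.

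**Figure D5:**
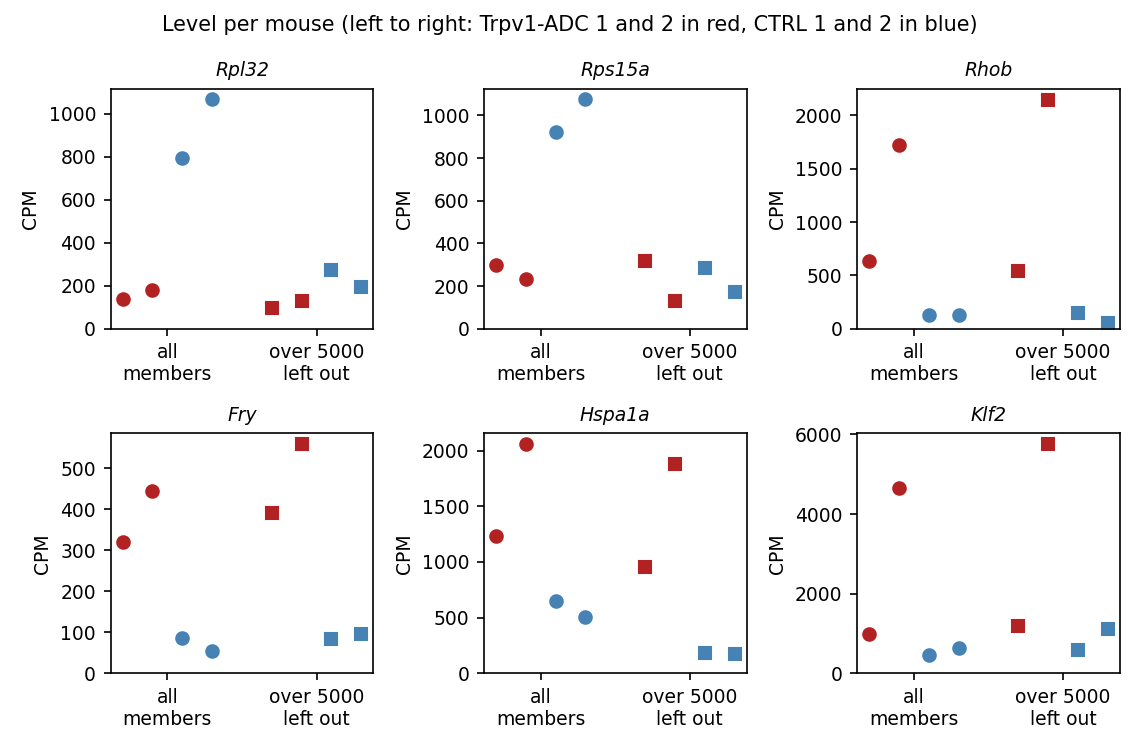
CPM per mouse of 6 genes in neutrophils, with all members (circles) and without the members over 5000 UMIs (squares), Trpv1-ADC mice in red left of CTRL mice in blue. Rhob is higher in both Trpv1-ADC mice in both settings, and Rpl32, at 795 and 1067 CPM in CTRL mice with all members, comes down to 274 and 193 CPM without the deep ones.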

How the data were processed

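The deposited files hold raw counts: UMI counts per gene and barcode, and counts per hashtag and barcode that the authors made from 1 droplet library. Per the submitters' processing notes, Cell Ranger and Seurat were used with build mm10; versions and counting settings are not given in the sources used here. The labels name both a 5′ and a 3′ chemistry, and how barcodes were chosen for deposit is not stated.

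UMIs were summed per mouse and cell type in Python 3.11.15 and tested with edgeR 4.0.16 in R 4.3.3 (filterByExpr, TMM factors, robust glmQLFit, glmQLFTest, Benjamini-Hochberg adjustment at 0.05). Mouse was a block between cell types. DESeq2 1.42.0 was an alternative. Doublets were called with Scrublet in scanpy 1.11.5 and kept. Genes read by a cell rule were not tested. The members, the gene lists and the tests were chosen with earlier results of these data known. Replicates are mice, 2 per group, and the labels name them as separate animals.

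Genes were named by a rule: calls with groups apart, up to 15 per direction, the 10 of smallest p where fewer passed, and list members past the test or among the 6 highest. On simulated counts of the Trpv1-ADC comparison, over 1441 genes, 67 of 95 genes changed 4-fold and 97 of 97 changed 16-fold were called, as were 9 unchanged genes. All these genes were changed in the same simulation and no single deep cells were simulated, so the rates need not hold for the real sums. Alternatives varied filters, tag ratio, marker thresholds, doublets, normalization, tool, block and mice. Intervals are Clopper-Pearson at 95% and, like floors of 3 counts, cover counting error only. The 11 tags not named for these mice took 0.127% of tag counts. Results of some genes are not reported here.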

Additional observations from a re-analysis of the deposited data

How the results depend on the processing

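The lower neutrophil share in Trpv1-ADC mice kept its direction under every alternative run, with the groups apart each time and differences between -0.41 percentage points (1 UMI of each excluding gene allowed) and -0.22 (members over 5000 UMIs left out), and -3.45 points of myeloid cells. Leaving out 1 mouse gave -0.32 to -0.22 points. The count of genes called between Trpv1-ADC and CTRL neutrophils, 0 in edgeR, was 3 with DESeq2, 134 with no low-count filter and 160 with 1 UMI of excluding genes allowed, 15 to 121 with 1 mouse left out, and 2 with DESeq2 after the members over 5000 UMIs were left out. Without those members and 1 mouse it was 91 (Trpv1-ADC 1), 9 (Trpv1-ADC 2), 0 (CTRL 1) and 1 (CTRL 2), and it stayed 0 under the other cell filters, RLE factors, a fit without robust and without Scrublet calls. The labels do not say that mice of equal number are linked. The deviations of same-numbered mice correlated at -0.184 across 1436 genes, which cannot settle whether they are. Mouse number as a replicate block gave 52 calls (7 higher, 45 lower), and the crossed pairing, chosen after seeing the data, gave 29. Against monocytes the 749 calls became 1242 with no low-count filter, 1089 with no replicate block for mouse, 1589 without the members over 5000 UMIs, and 452 to 654 with 1 mouse left out. Against macrophages the 920 calls became 1275 with no replicate block, 1982 without those members and 557 to 1011 with 1 mouse left out. Leaving out those members was also chosen after seeing the data. Rps15a turned sign under it, with a log2 fold change of 0.018. Against monocytes and macrophages the median log2 fold change of all genes moved by -0.055 and -0.096 with RLE factors, and by -0.10 and -0.15 with DESeq2, which changes the tool as well as the scaling. Of the 111 and 112 named genes called against monocytes and macrophages, 35 and 33 lost the call under at least 1 alternative. The causes were not tested. Changes smaller than 4-fold were not simulated at this depth of 11 to 30 neutrophils per mouse.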
